A study of Homo sapiens with 12 samples.

Results

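ALOX15B, MYADM, SULT1E1, VSTM2L, ATP10A, PYCARD and SCNN1B are 7 of the 29744 genes in a table of RNA-seq counts from 4 human breast cell lines. They were chosen by name for having 0 or close to 0 counts in CA1 (MCFCA1), the invasive line, while being expressed elsewhere. Their fall in CA1 is therefore what chose them, and it is given here as a description with no test. The series was made to assess a preparation that yields DNA, RNA and peptides from the same cells, with 3 biological replicates of each line. A10 is MCF10A, a mammary epithelial line that does not form tumours. NeoT (MCFNeoT, benign hyperplasia) was made from MCF10A by introducing mutant HRAS, and T1 (MCFT1, atypical hyperplasia) and CA1 descend from that transformed line through growth as xenografts. The derived lines thus share the introduced HRAS, no line received a further treatment that the labels name, and each stage is represented by a single cell line, so a stage and the history of its line cannot be told apart. The design text calls all 4 lines triple-negative.

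The 7 genes belong to separate systems. Lipoxygenases such as ALOX15B add oxygen to arachidonic acid and related fatty acids, and SULT1E1 transfers sulfate to estrogens, which stops them from binding their receptor. SCNN1B is the beta subunit of the epithelial sodium channel, which takes up sodium at the apical side of epithelia, and ATP10A is a P4-ATPase, a flippase that moves lipids between the leaflets of a membrane. PYCARD (ASC) is the adaptor that joins inflammasome sensors to caspase-1. MYADM is a membrane protein with MARVEL domains found in lipid rafts, and VSTM2L is a secreted protein with an immunoglobulin domain that has been reported to bind the peptide humanin.

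Promoters of RefSeq (GRCh38.p14) were listed for 5 of the 7 genes: MYADM, SULT1E1, ATP10A, PYCARD and SCNN1B. The 250 bases before the start of PYCARD (chr16:31202761-31203010, minus strand) and of SULT1E1 (chr4:69860146-69860395, minus strand) are shown because both genes had 0 counts in CA1 while their promoters differ in CpG content. Capitals mark the CpG dinucleotides.

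PYCARD: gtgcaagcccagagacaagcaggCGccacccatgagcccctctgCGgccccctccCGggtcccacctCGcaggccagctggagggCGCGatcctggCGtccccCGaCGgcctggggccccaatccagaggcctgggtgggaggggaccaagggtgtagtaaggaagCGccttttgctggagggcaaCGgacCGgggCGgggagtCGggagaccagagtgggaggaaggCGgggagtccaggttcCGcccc

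SULT1E1: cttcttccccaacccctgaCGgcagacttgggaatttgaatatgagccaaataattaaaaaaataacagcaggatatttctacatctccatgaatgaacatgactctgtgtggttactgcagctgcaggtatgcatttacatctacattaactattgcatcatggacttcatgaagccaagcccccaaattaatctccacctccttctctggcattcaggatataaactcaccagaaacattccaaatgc

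PYCARD has 16 CpG dinucleotides in this stretch, and SULT1E1 has 1. Over the full 300 bases listed per promoter (250 before and 50 after the start), PYCARD has 23 CpG with an observed to expected ratio of 0.60, which 48.8% of all promoters reach. SULT1E1 has 1 with a ratio of 0.085, and 92.2% of the 35116 promoters have a ratio at least as high. SCNN1B has 29 CpG (ratio 0.80) and ATP10A 37 (1.05, a ratio reached by 4.93% of all promoters). The 3 listed starts of MYADM have 31, 23 and 20 CpG with ratios of 0.80, 0.64 and 0.57. The median promoter has 14 CpG and a ratio of 0.579, so the 7 starts lie on both sides of it. The letters TATAAA, searched on both strands, occur in the SULT1E1 promoter and at the third start of MYADM, and in 11.5% of all promoters. DNA methylation and factor binding were not analysed here.

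**Figure D1:**
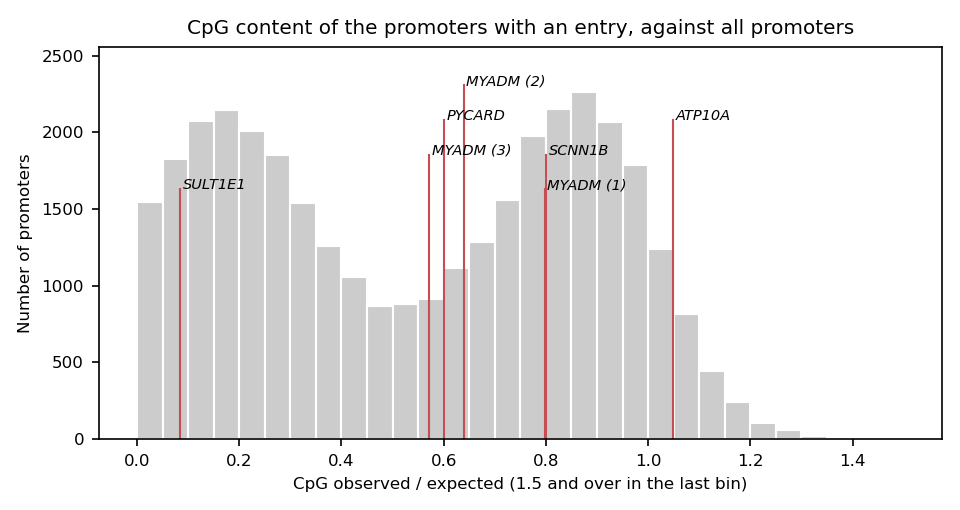
Histogram of the observed to expected CpG ratio over 35116 RefSeq promoters of 300 bases (x axis: ratio; y axis: number of promoters), with lines at the listed promoters of 5 genes low in CA1. SULT1E1 lies at 0.085 in the left tail, ATP10A at 1.05 on the right, and MYADM, PYCARD and SCNN1B between 0.57 and 0.80.

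Libraries held 18032399 to 35730423 counts, and 14417 genes, all 7 of these among them, had enough counts to be tested. Levels are CPM (counts scaled by TMM to library size), as mean ± SD over 3 libraries. They compare lines for 1 gene and are not corrected for transcript length, so genes are not ranked against each other by level. For a gene with no count in a line, the level of 3 counts over its libraries is taken as the floor: 0.0326 CPM for A10, 0.0474 for NeoT, 0.0356 for T1 and 0.0463 for CA1. A fold against such a line is a lower bound. Floors and counting intervals cover counting error only. Adjusted p-values are from edgeR's quasi-likelihood test with Benjamini-Hochberg adjustment over all 14417 genes. All 8 epithelial marker genes had counts in every line, but CDH1 (E-cadherin) stood at 0.691 CPM and KRT5 at 40.2 in NeoT, beside 313 and 3350 in A10. KRT8 and ITGB4 stood higher in NeoT (473 and 9350 CPM) than in A10 (147 and 1060). Of the 8 epithelial genes, 2 were higher and 5 lower in NeoT than in A10 (33.7% and 36.7% of all genes tested). Their summed level was 5340 to 5961 CPM in A10 libraries and 10020 to 10320 in NeoT. It was 8231 to 8666 CPM in T1 and 15770 to 16610 in CA1. Of 7 leukocyte markers, 3 had counts in every line, CD14 at 19.4 (CA1) to 92.4 CPM (T1), CSF1R at up to 10.8 and LYZ below 1, while PTPRC, CD3E and CD163 had 0 throughout. Of 8 fibroblast markers, 6 had 0 counts in CA1 and 1 or none in the other lines, where DCN stood at 69.1 CPM in A10, 632 in NeoT and 0.447 in T1. Of 5 endothelial markers, 4 or 5 had counts in each line, with PECAM1 at 85.6 CPM in T1, 24.0 in CA1 and about 2 in A10 and NeoT. The summed level of the leukocyte list was 66.5 to 70.4 CPM in A10 libraries, 52.2 to 55.7 in NeoT, 99.5 to 109 in T1 and 20.03 to 25.4 in CA1. That of the fibroblast list was 73.5 to 79.1 CPM, 611 to 679, 1.74 to 2.78 and 3.63 to 4.73 in the same order, and that of the endothelial list 7.34 to 10.8, 2.59 to 3.53, 82.9 to 90.6 and 23.7 to 25.04. Their part in the results was not tested.

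T1 replicate 1 stood apart with 7.76% of its counts in 4 rRNA rows, beside 0.954% to 2.18% in the other libraries. NeoT replicate 3 had the lowest agreement with its replicates (r = 0.9776). Leaving both out ended 1 of the calls given below, that of SULT1E1 in T1 against A10 (adjusted p = 0.135), and no other.

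The name given to the set, genes lost in CA1, holds against all other lines for ALOX15B, MYADM, SULT1E1, VSTM2L and SCNN1B. PYCARD had 0 counts in NeoT as well as in CA1. ATP10A had counts in T1 and in no other line, so it is low in CA1 only relative to T1. Because bulk RNA was measured, fewer cells expressing a gene and less RNA per cell cannot be told apart.

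**Figure D2:**
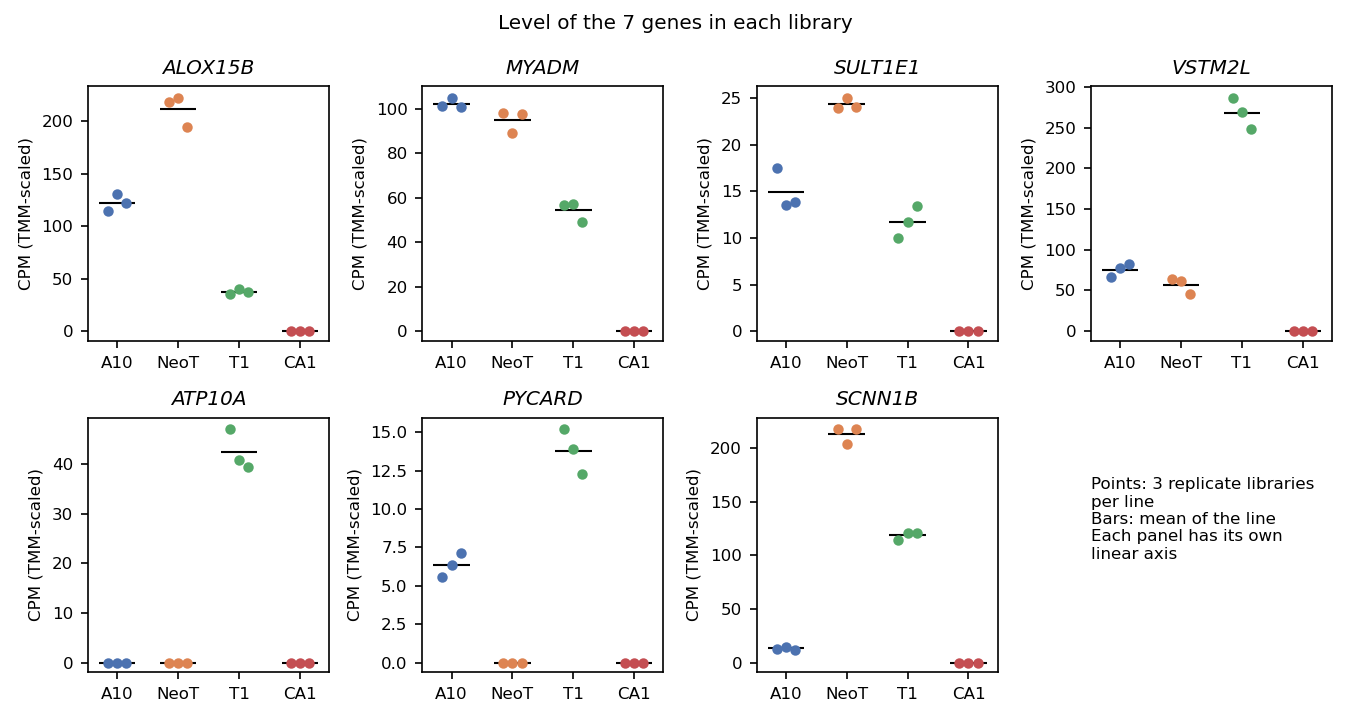
Level of the 7 genes in each of the 12 libraries (y axis: CPM on a linear scale from 0, 1 panel per gene; x axis: line; points: libraries; bars: mean of the line). CA1 lies at or next to 0 in all panels, PYCARD is also at 0 in NeoT, and ATP10A is above 0 in T1 alone.

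The genes were chosen for being expressed outside CA1, but not for how A10, NeoT and T1 differ, and among these 3 lines they did not move together. ATP10A, which could only have been chosen through T1, is left out of these tests, and PYCARD, at 0 in NeoT and so chosen through A10 or T1, out of those with NeoT. Of the other 5 genes, 3 were higher in NeoT than in A10 (ALOX15B, SULT1E1 and SCNN1B), VSTM2L was lower and MYADM did not pass. Over all genes tested, 33.7% were higher and 36.7% lower in that comparison. In T1 against A10, 3 of 6 were higher (VSTM2L, PYCARD and SCNN1B) and 3 lower (ALOX15B, MYADM and SULT1E1), against 26.0% and 25.9% of all genes. In T1 against NeoT, 1 of 5 was higher (VSTM2L) and 4 lower, against 35.0% and 32.4%. The lines differ in so many genes that a call by itself does not set these genes apart.

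ALOX15B (chromosome 17, 8039059 to 8049134; positions are GRCh38.p14) stood at 114, 131 and 122 CPM in the A10 libraries, and at 218, 223 and 195 in NeoT. It stood at 35.7, 39.7 and 37.6 CPM in T1, and no read was assigned to it in CA1. NeoT was highest and T1 lowest of the lines that express it, with no overlap between any pair of lines. ALOX15B rose 1.73-fold from A10 (122 ± 8.19 CPM) to NeoT (212 ± 14.9; adjusted p = 9.51e-08). In T1 (37.6 ± 2.02 CPM) it was 3.25-fold lower than in A10 (adjusted p = 2.19e-11) and 5.62-fold lower than in NeoT (adjusted p = 6.64e-14). The CA1 floor puts it at least 2642-fold below A10, 4572-fold below NeoT and 813-fold below T1.

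Other enzymes of fatty acid oxygenation went in both directions in CA1, with medians below those of all genes. ALOX15, a related lipoxygenase gene, had 0 counts in all 12 libraries, and ALOX5 had counts in A10 only, at 0.0273 CPM. Of 15 tested lipoxygenase and eicosanoid genes other than ALOX15B, 3 were higher and 7 lower in CA1 than in A10, while 34.4% of all genes were higher and 36.5% lower. Their median log2 difference was -0.49, beside -0.02 for all genes. Against T1, 5 were higher and 7 lower (all genes 30.4% and 31.9%), with a median of -0.53 beside -0.01. Against NeoT, 5 were higher and 8 lower (all genes 33.8% and 32.7%), with a median of -0.77 beside 0. In the order A10, NeoT, T1 and CA1, PLA2G4A stood at 19.2, 15.2, 12.5 and 1.8 CPM. PTGS1 stood at 9.35, 1.45, 10.5 and 0.386 CPM, while HPGD rose through 2.97, 10.8, 24.7 and 47.0. PTGS2 (cyclooxygenase-2), which makes the prostaglandin precursor, was 14.4-fold lower in CA1 (1.67 ± 0.193 CPM) than in A10 (24.2 ± 2.67 CPM, adjusted p = 2.05e-12). PTGS2 was also low in NeoT, the line highest in ALOX15B, at 3.65 ± 0.959 CPM, and stood at 28.7 ± 4.72 in T1. CA1 was 2.14-fold below NeoT (adjusted p = 0.000223). PTGES, a prostaglandin E synthase, stood at 613 ± 5.11 CPM in A10, 727 ± 67.0 in NeoT and 660 ± 17.9 in T1. It was 4.95-fold lower than A10 in CA1, at 124 ± 4.89 CPM (adjusted p = 1.35e-15). GPX4, which reduces lipid hydroperoxides, was 1.95-fold higher in CA1 than in A10 (358 ± 19.2 and 184 ± 8.66 CPM, adjusted p = 1.99e-10). NeoT, the line highest in ALOX15B, had 330 ± 20.7 CPM of GPX4, and T1 had 263 ± 6.12. A level of GPX4 above that of A10 was thus not particular to CA1.

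SULT1E1 (chromosome 4, 69821122 to 69860145), whose CpG-poor promoter is shown above, stood at 17.5, 13.5 and 13.9 CPM in A10, at 24.0, 25.1 and 24.1 in NeoT, and at 9.96, 11.7 and 13.5 in T1. All CA1 libraries had 0 counts. The NeoT libraries lay above all A10 and T1 libraries, whereas the highest T1 library and the lowest A10 library were nearly level. SULT1E1 was 1.62-fold higher in NeoT (24.4 ± 0.592 CPM) than in A10 (14.96 ± 2.20; adjusted p = 0.000255) and 2.09-fold lower in T1 (11.7 ± 1.74) than in NeoT (adjusted p = 4.35e-06). The 1.28-fold difference of T1 from A10 passed narrowly (adjusted p = 0.0404). It was lost without A10 replicate 1 (adjusted p = 0.221), T1 replicate 1 (0.171), T1 replicate 2 (0.0865) or NeoT replicate 2 (0.0516), so T1 and A10 are neighbours that do not separate firmly. In CA1 it was at least 323-fold below A10, 527-fold below NeoT and 253-fold below T1.

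STS, the steroid sulfatase that removes the sulfate SULT1E1 adds, was also low in CA1: 5.53 ± 0.516 CPM there, 24.1 ± 1.90 in A10 and 50.8 ± 1.54 in T1. That was 4.35-fold lower than A10 (adjusted p = 4.76e-11) and 9.15-fold lower than T1 (adjusted p = 3.11e-13). NeoT, where SULT1E1 was highest, had 5.77 ± 1.18 CPM of STS. SULT1B1, a sulfotransferase of the same family and the single tested gene within 500 kb of SULT1E1, stood at 1.82 ± 0.175 CPM in A10, 15.9 ± 3.32 in NeoT and 0.865 ± 0.186 in T1. It had 0 counts in CA1 and was at least 39.4-fold lower there than in A10 (adjusted p = 1.13e-08) and 343-fold lower than in NeoT (adjusted p = 5.18e-12). NeoT was thus the highest line for both neighbouring genes. PAPSS1, which makes the sulfate donor, stood at 82.3 ± 2.78 CPM in CA1 and 75.7 ± 2.85 in A10. Of 16 tested genes of sulfate transfer and estrogen conversion, 4 were higher and 5 lower in CA1 than in A10 (median log2 difference -0.43), while 34.4% of all genes were higher and 36.5% lower (median -0.02). Against T1, 1 was higher and 6 lower (median -0.18), beside 30.4% and 31.9% of all genes (median -0.01). These counts hold 4 SULT1A genes, near-identical copies whose reads can be split. Without them, 2 of 12 were higher and 5 lower than in A10 (median -0.57), and 1 was higher and 6 lower than in T1 (median -0.36, or -0.24 with genes at 0 counts set to their bounds).

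MYADM (chromosome 19, 53865628 to 53876435) stood at 101.2, 105 and 100.7 CPM in A10, at 98.0, 88.9 and 97.6 in NeoT, and at 56.8, 57.1 and 49.1 in T1. It had 0 counts in the CA1 libraries. A10 and NeoT were close, and all T1 libraries lay below them. The NeoT mean (94.8 ± 5.11 CPM) was below that of A10 (102 ± 2.36) by 0.11 on the log2 scale, which did not pass (adjusted p = 0.223). T1 (54.3 ± 4.52 CPM) was 1.88-fold lower than A10 (adjusted p = 5.12e-08) and 1.74-fold lower than NeoT (adjusted p = 1.38e-07). In CA1 it was at least 2209-fold below A10, 2048-fold below NeoT and 1173-fold below T1.

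Relatives of MYADM with a MARVEL domain were not low in CA1 as a group. Of 17 tested, 8 were higher and 3 lower than in A10 (median log2 difference 0.26, with 34.4% of all genes higher and 36.5% lower). Against T1, 7 were higher and 7 lower (median 0.065, with 30.4% of all genes higher and 31.9% lower). Against NeoT, 13 were higher and 0 lower (median 1.03, where 33.8% of all genes were higher and 32.7% lower). NeoT itself was lower than A10 in 9 of them and higher in 3. CMTM7, a surface protein of this kind, rose from 24.3 ± 1.53 CPM in A10 to 527 ± 16 in CA1, a 21.7-fold difference (adjusted p = 5.21e-18). It stood at 24.6 ± 2.40 CPM in NeoT and already at 115 ± 7.14 in T1. CA1 was 4.59-fold above T1 (adjusted p = 2.96e-14). MALL, a raft protein, was 14.04-fold higher in CA1 (263 ± 9.56 CPM) than in A10 (18.7 ± 0.870, adjusted p = 4.43e-17). Most of that rise was also present in T1, at 185 ± 1.29 CPM, and NeoT had 27.3 ± 3.71. For MALL, CA1 was 1.43-fold above T1 (adjusted p = 1.29e-05). MAL2, which acts in apical transport, was 2.13-fold lower in CA1 (277 ± 6.69 CPM) than in T1 (589 ± 1.63; adjusted p = 1.29e-10).

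SCNN1B (chromosome 16, 23278231 to 23381294) differed most among the lines that express it. It stood at 12.7, 14.7 and 12.03 CPM in A10, at 217, 204 and 217 in NeoT and at 114, 121 and 121 in T1. It was the one gene of the set with counts left in CA1: 0, 1 and 1 in the 3 libraries. The order was NeoT above T1 above A10, with wide gaps between the lines. SCNN1B rose 16.2-fold from A10 (13.2 ± 1.40 CPM) to NeoT (213 ± 8.04; adjusted p = 1.33e-17). In T1 (119 ± 4.05 CPM) it was 9.04-fold higher than in A10 (adjusted p = 1.05e-15) and 1.80-fold lower than in NeoT (adjusted p = 1.15e-08). The ratio to CA1 was 422 for A10 (95% counting interval 117 to 3490), 6878 for NeoT (1900 to 56800) and 3840 for T1 (1060 to 31700).

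The channel has 3 subunits, and they did not behave alike. SCNN1G, the gamma subunit gene next to SCNN1B on chromosome 16, followed the same order of lines: 270 ± 13.3 CPM in NeoT, 86.3 ± 2.81 in T1, 45.2 ± 6.14 in A10 and 0.491 ± 0.0611 in CA1. It was 90.4-fold lower in CA1 than in A10 (adjusted p = 5.78e-17), 542-fold lower than in NeoT (adjusted p = 1.14e-19) and 173-fold lower than in T1 (adjusted p = 1.44e-17). SCNN1A, the alpha subunit gene on another chromosome, was still at 379 ± 5.60 CPM in CA1, beside 344 ± 20.1 in A10, 603 ± 31.6 in NeoT and 505 ± 14.1 in T1. It was 1.59-fold lower than in NeoT (adjusted p = 1.27e-08) and 1.33-fold lower than in T1 (adjusted p = 1e-05). Against A10 it was 1.10-fold higher (adjusted p = 0.0423), a call lost when any library of CA1 or T1, or A10 replicate 1 or 3, was left out (adjusted p 0.0567 to 0.165).

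Regulators of the channel also differed in CA1. NEDD4L, the ubiquitin ligase that removes the channel from the membrane, was 2.36-fold higher in CA1 (196 ± 3.68 CPM) than in A10 (83.1 ± 1.12; adjusted p = 9.64e-11). SGK1, the kinase that holds NEDD4L back, was 10.6-fold lower (3.54 ± 0.482 and 37.2 ± 1.22 CPM, adjusted p = 1.14e-14). SGK1 was also low in NeoT, at 6.90 ± 0.356 CPM, and stood at 31.4 ± 0.973 in T1. CA1 was 1.96-fold below NeoT (adjusted p = 1.9e-06). NEDD4L stood at 28.4 ± 4.27 CPM in NeoT and 136 ± 4.07 in T1. ST14 (matriptase), a protease of the channel's activating cascade, stood at 414 ± 16.1 CPM in CA1 and 312 ± 24.0 in A10, but at 2.33 ± 0.975 in NeoT, the line highest in SCNN1B. Of the 13 tested genes of the channel and its regulators without SCNN1B, 8 were higher and 3 lower in CA1 than in A10 (median log2 difference 0.65; 34.4% of all genes higher and 36.5% lower), and 4 were higher and 7 lower than in T1 (median -0.26; all genes 30.4% and 31.9%).

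VSTM2L (chromosome 20, 37903127 to 37945350) stood at 66.1, 77.9 and 82.7 CPM in A10 and at 64.2, 61.3 and 45.9 in NeoT. In T1 it stood at 287, 269 and 248, and in CA1 at 0 counts. T1, the line derived from the same transformed cells as CA1, was far above the other lines, and the A10 and NeoT libraries lay close to each other without overlap. VSTM2L was 3.55-fold higher in T1 (268 ± 19.3 CPM) than in A10 (75.6 ± 8.51; adjusted p = 3.78e-09) and 4.68-fold higher than in NeoT (57.1 ± 9.86; adjusted p = 2.19e-10). NeoT was 1.32-fold lower than A10 (adjusted p = 0.00656). In CA1 it was at least 1632-fold below A10, 1233-fold below NeoT and 5785-fold below T1.

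Its nearest relatives could not be compared, since most were not expressed. VSTM2A had counts in CA1 only, at 0.0559 CPM, and of 11 VSTM and VSIG genes with a row 3 passed the filter on counts. VSIG10, a membrane protein with immunoglobulin domains, stood at 16.2 ± 2.26 CPM in CA1 and 15.1 ± 1.36 in A10. It was highest in T1, at 24.8 ± 3.25 CPM, and 1.54-fold lower in CA1 than there (adjusted p = 0.000386).

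PYCARD (chromosome 16, 31201486 to 31202760) stood at 5.55, 6.34 and 7.15 CPM in A10 and at 15.2, 13.9 and 12.3 in T1. It had 0 counts in all 3 libraries of NeoT and all 3 of CA1. T1 lay above A10 without overlap, and the other lines were at the floor. T1 (13.8 ± 1.47 CPM) was 2.18-fold higher than A10 (6.35 ± 0.799; adjusted p = 0.000166). In NeoT it was at least 134-fold below A10 and 291-fold below T1. CA1 was at least 137-fold below A10 and 298-fold below T1. No fold is given between NeoT and CA1, which are both at 0. Of 11817 genes with at least 1 CPM in A10 and in T1, 4 had 0 counts in both NeoT and CA1. These were PYCARD, ARSI, MFAP5 and LOC101928281. The pattern was written from the values of PYCARD, so its own place there was fixed beforehand. KLK8, at 11.6 CPM in A10, 18.04 in T1 and 0 counts in NeoT, was left out by 2 counts in CA1.

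Transcripts of the proteins that PYCARD joins, and of those that act after it, went in different directions in CA1. NLRP3, a sensor that recruits PYCARD, stood at 6.42 ± 0.123 CPM in A10, 1.41 ± 0.643 in T1, 1.02 ± 0.125 in NeoT and 0.124 ± 0.130 in CA1. It was 49.99-fold lower in CA1 than in A10 (adjusted p = 1.59e-08) and 10.9-fold lower than in T1 (adjusted p = 3.3e-05). IFI16, a DNA sensor with a pyrin domain, was 8.94-fold lower in CA1 (30.3 ± 0.613 CPM) than in A10 (272 ± 4.35; adjusted p = 2.36e-17). The sensor gene AIM2 had at most 0.0743 CPM in any line.

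CASP1, the protease activated on the PYCARD scaffold, was 2.95-fold lower in CA1 (11.5 ± 0.955 CPM) than in A10 (33.96 ± 1.15; adjusted p = 1.79e-10). Genes for its substrates IL-1 beta and gasdermin D were higher in CA1 than in A10. IL1B stood at 403 ± 7.88 CPM in CA1, 110 ± 2.12 in A10, 7.24 ± 0.764 in NeoT and 17.5 ± 0.852 in T1. That was 3.66-fold above A10 (adjusted p = 1.97e-14) and 55.4-fold above NeoT (adjusted p = 4.2e-20), the other line without PYCARD counts. GSDMD, which codes for the pore protein gasdermin D, was 1.60-fold higher in CA1 (24.2 ± 2.88 CPM) than in A10 (15.1 ± 1.32; adjusted p = 0.000552) and stood at 0.496 ± 0.289 in NeoT. Of 19 tested inflammasome and pyroptosis genes, 8 were higher and 9 lower in CA1 than in A10 (median log2 difference -0.17; 34.4% of all genes higher and 36.5% lower), and 6 higher and 7 lower than in T1 (median 0.04; all genes 30.4% and 31.9%).

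ATP10A (chromosome 15, 25672237 to 25865088) stood at 47.0, 40.8 and 39.4 CPM in T1 (42.4 ± 4.02), where its libraries held 3573 counts. The 9 libraries of the other lines had none. T1 was at least 1299-fold above A10, 895-fold above NeoT and 916-fold above CA1. Of 9177 genes with at least 10 CPM in T1, ATP10A was the single one with 0 counts in A10, NeoT and CA1. That pattern was written from the values of ATP10A, so its place in it was fixed beforehand. LPL, at 24.3 CPM in T1 and 0 counts in A10 and CA1, was left out by 5 counts in NeoT.

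Most other flippases and their partner subunits were expressed in CA1, but ATP8B2 had 0 counts there and in T1. TMEM30A (CDC50A) is a subunit that most, but not all, P4-ATPases need to leave the endoplasmic reticulum. It was 2.12-fold higher in CA1 (476 ± 4.01 CPM) than in T1 (225 ± 5.24, adjusted p = 1.25e-09). ATP11B, a flippase of endosomes, was 1.72-fold higher (144 ± 1.80 and 83.5 ± 1.83 CPM; adjusted p = 7.24e-07), and ATP9A, also endosomal, 2.34-fold higher (174 ± 8.70 and 74.4 ± 4.43; adjusted p = 5.38e-10). ATP11A went the other way, at 37.8 ± 3.52 CPM in CA1 and 53.2 ± 1.74 in T1. Of 14 tested genes of this family other than ATP10A, 4 were higher and 4 lower in CA1 than in T1 (median log2 difference 0.05). That share is close to the 30.4% and 31.9% of all genes. The partner subunit gene TMEM30B was, like ATP10A, higher in T1 than in A10 (40.4 ± 2.82 and 0.120 ± 0.119 CPM, 354-fold; adjusted p = 8.49e-14), but stood at 33.8 ± 3.18 CPM in CA1.

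**Figure D3:**
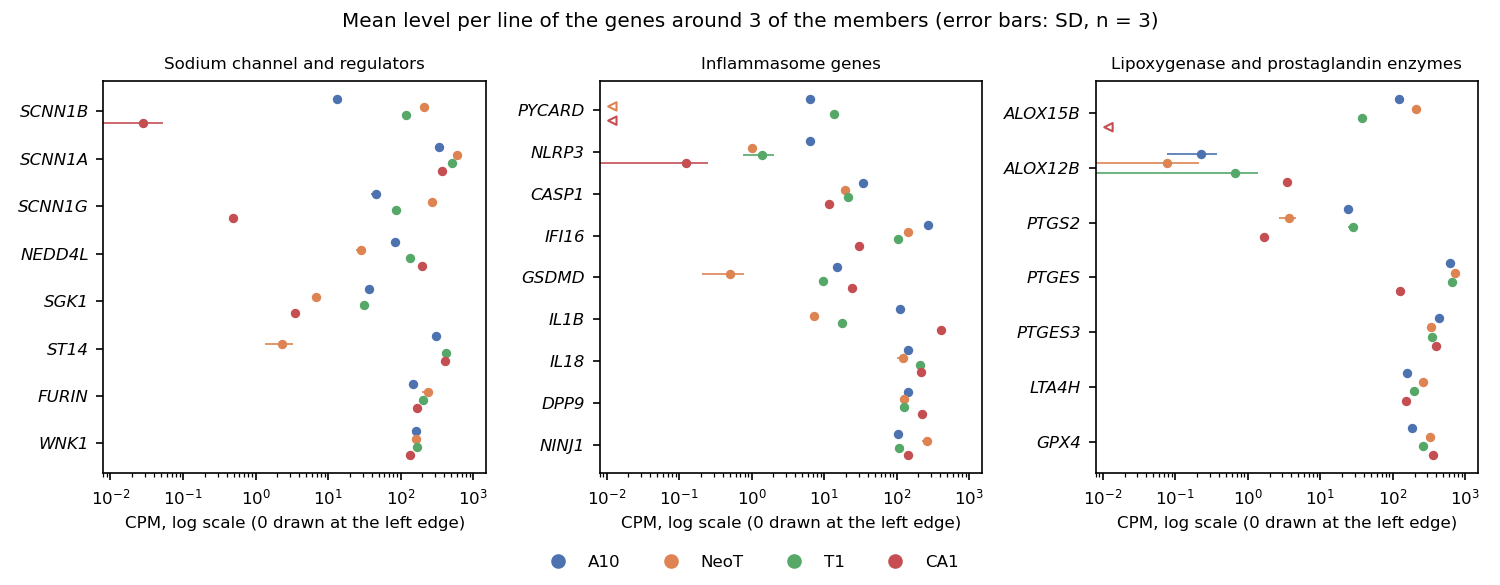
Mean level (x axis: CPM, log scale) of SCNN1B, PYCARD and ALOX15B, each at the top of its panel, and of genes from the same system, with 1 colour for each of the 4 lines and SD over 3 libraries as error bars; bars that would reach below 0 end at the left edge, and open triangles there are lines with 0 counts. SCNN1A lies between 344 and 603 CPM in all lines while SCNN1B and SCNN1G lie below 1 in CA1, and IL1B has its highest level, 403 CPM, in CA1.

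ALOX15B, MYADM, SULT1E1, VSTM2L and SCNN1B stood at the far end of the table in CA1. Their places follow from how they were chosen and are given as a description. Of 11302 genes with at least 1 CPM in each of A10, NeoT and T1, 45 (0.398%) had a measured CA1 mean under 1% of the lowest other line, with 0 counts taken as 0, and 33 (0.292%) had 0 counts in CA1. With 0 to 3 counts set to the floor, 16 (0.142%) were under 1%, ALOX15B, MYADM, SULT1E1, VSTM2L and SCNN1B among them; the others of the 45 are too low elsewhere to be placed under that limit at this depth. VSTM2L ranked 2, MYADM 3, ALOX15B 5, SCNN1B 9 and SULT1E1 11 by the size of the gap, with 0 to 3 counts placed at the floor. MT1E ranked 1 but has near-identical metallothionein copies, so its counts are uncertain. PYCARD and ATP10A fall outside because they are at 0 in another line. With at least 5 CPM required in each other line, the count by measured means was also 16. By measured means, just inside the limit lay CYP4B1, ZNF585B and ACAT2, at 0.607%, 0.612% and 0.639% of their lowest other line. Just outside lay SCNN1G at 1.09%, and MCAM and SECTM1 at 1.14%.

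**Figure D4:**
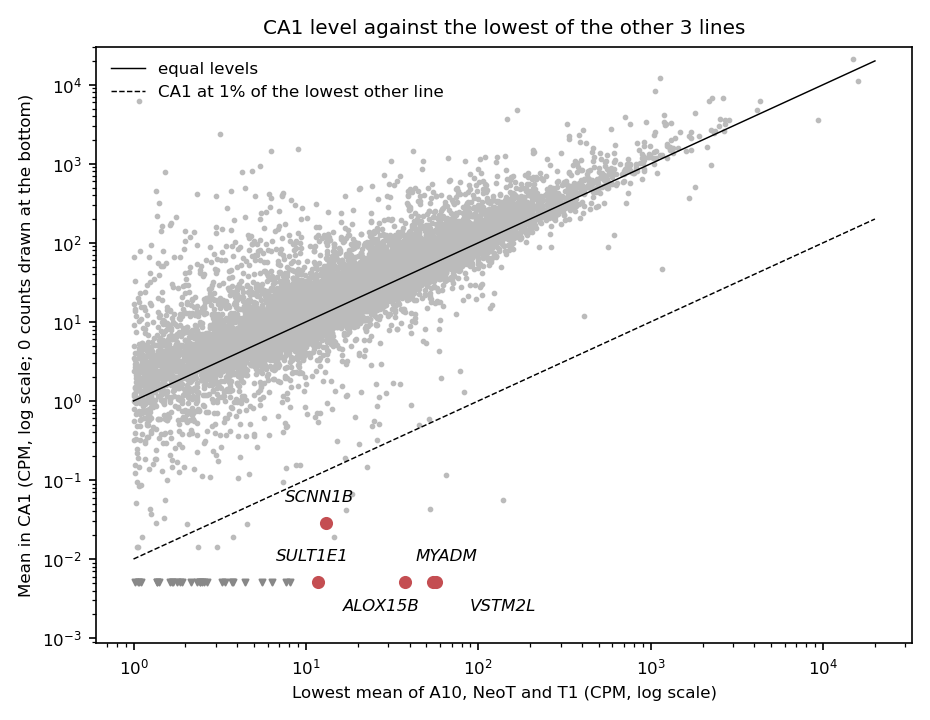
Mean CA1 level against the lowest mean of A10, NeoT and T1 for 11302 genes (both axes: CPM, log scale; genes with 0 counts in CA1 drawn as triangles at the bottom; solid line: equal levels; dashed line: CA1 at 1% of the lowest other line). ALOX15B, MYADM, SULT1E1 and VSTM2L lie at the bottom, to the right of the other genes with 0 counts, and SCNN1B lies below the dashed line with 2 counts.

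A low level in 1 line was not limited to CA1. The same count gave 98 genes of 11401 for NeoT, 10 of 11183 for A10 and 2 of 11088 for T1 by measured means, and 54, 4 and 1 with 0 to 3 counts at the floor.

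Across the 12 libraries, the log2 levels of ALOX15B, MYADM, SULT1E1, VSTM2L and SCNN1B had Pearson's r of 0.919 to 0.995 with each other. ATP10A had 0.15 to 0.666 with the other genes of the set, and PYCARD 0.381 to 0.676. These values describe 12 libraries that share 4 lines, and the step to CA1 sets most of them. Outside the set, the gene closest to ALOX15B was JPH2 (r = 0.998), at 49.2, 67.2, 14.5 and 0.0188 CPM in A10, NeoT, T1 and CA1. FLNA (filamin A), an actin cross-linker, was closest to SULT1E1 (0.998), at 1338, 1849, 1174 and 47.1 CPM, and CCND3 (cyclin D3) to MYADM (0.997). TFCP2L1, a transcription factor, was closest to SCNN1B (0.998), at 124, 403, 340 and 23.1 CPM. SEMA3F was closest to VSTM2L (0.996), the lipase gene LPL to ATP10A (0.993) and the kallikrein gene KLK8 to PYCARD (0.995). KLK8 stood at 11.6, 0, 18.04 and 0.0288 CPM and thus was low in the same lines as PYCARD, and LPL stood at 0, 0.0773, 24.3 and 0 CPM.

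The 7 genes lie on 6 chromosomes, and SCNN1B and PYCARD, the pair on chromosome 16, are not neighbours there. Within 500 kb of them, 103 other genes were tested. Of these, 28 were higher and 38 lower in CA1 than in T1, where 30.4% of all genes were higher and 31.9% lower. Of the 82 neighbours with at least 1 CPM in A10, NeoT and T1, 2 had 0 counts in CA1: TNFSF12 near ALOX15B and CTF1 near PYCARD. The floor puts TNFSF12 below 0.73% of its lowest other line, but CTF1 only below 4.37%. SCNN1G was the third under 10%. Near MYADM and VSTM2L there were 13 and 7 such neighbours, and none was under 10%.

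The nearest tested genes on either side were expressed in CA1 in most cases, but SULT1B1 and AMTN beside SULT1E1 and CACNG7 beside MYADM had 0 counts there. CACNG7 had counts in NeoT only, at 1.499 ± 0.706 CPM. CTNNBL1 and TTI1, which flank VSTM2L, stood at 24.0 ± 2.76 and 22.0 ± 1.46 CPM in CA1 and were 1.60-fold and 1.97-fold lower than in A10 (adjusted p = 1.13e-05 and 5.29e-08). ALOX12B, the lipoxygenase gene beside ALOX15B, was 14.5-fold higher in CA1 (3.52 ± 0.493 CPM) than in A10 (0.225 ± 0.148; adjusted p = 0.000266). COG7, on the other side of SCNN1B from SCNN1G, was 2.10-fold higher (46.8 ± 1.54 and 22.3 ± 1.03 CPM; adjusted p = 4.56e-09). UBE3A, beside ATP10A, stood at 97.9 ± 1.06 CPM in CA1 and 87.7 ± 3.95 in T1.

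**Figure D5:**
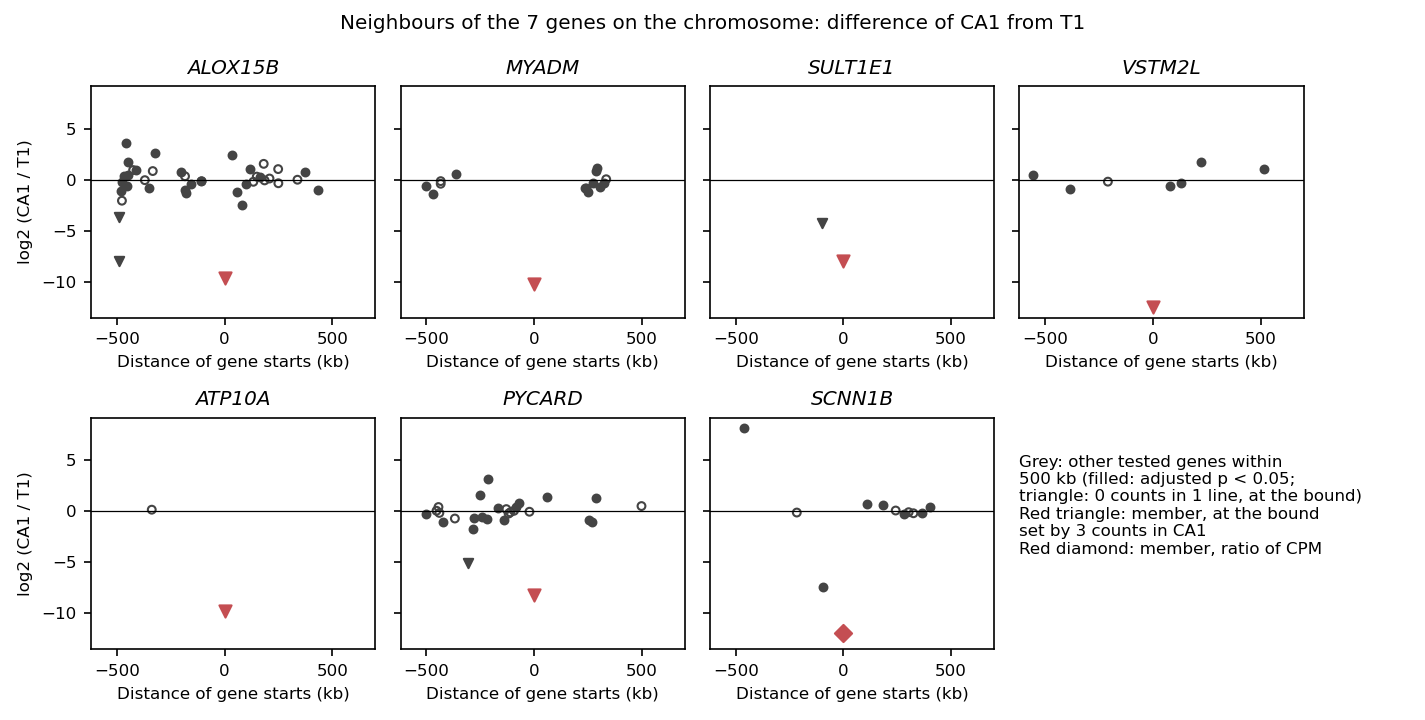
Log2 difference of CA1 from T1 (y axis) for tested genes within 500 kb of each of the 7 genes, by the distance between gene starts in kb (x axis). Filled grey points passed the test, open ones did not, triangles are bounds for genes with 0 counts in 1 line, and red symbols are the 7 genes; SCNN1G is the low grey point beside SCNN1B, and most other neighbours lie near 0.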

How the data were processed

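RNA of 12 libraries, 3 biological replicates of each of 4 lines, was measured by RNA-seq. The values are estimated counts per gene, made with Salmon as the name of the deposited table says, and not scaled between libraries by the authors. The submitters' processing notes list GRCh38 and limma but give no role for them, and the Salmon version, annotation and strand setting are not given in the sources used here. Of the deposited values 10.1% were not whole, and rounding moved none by more than 0.5.

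Genes were filtered with edgeR's filterByExpr, which left 14417 of 29744, and scaled by TMM. The 12 libraries were fitted together in edgeR 4.0.16 (R 4.3.3) with its quasi-likelihood test, a mean for each line and robust estimates of spread. A gene was called at a two-sided Benjamini-Hochberg adjusted p under 0.05. Its steps were tested on simulated data. Nothing says that replicates came from separate thawed stocks, so p-values measure the spread between these libraries only. The 7 genes, the lists of relatives and the rules were chosen with earlier results of these data known.

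A fold against a line at 0 counts uses 3 counts over the line as its floor, and a fold against 1 to 3 counts is the ratio of the CPM, with its exact 95% counting interval. Other folds are fitted values. Positions and promoters are from RefSeq (GRCh38.p14), with 23146 rows found by symbol, 1781 by synonym and 4817 not found. Likeness is Pearson's r of log2 CPM (prior count 2) among genes of at least 10 CPM in the highest line.

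Genes named beside the 7 are, per list, the 4 with the highest mean level and those listed by name, the nearest tested gene on each side, the 3 most alike, and the 10 lowest in CA1 relative to the other lines; not all of them are printed. CDH1, KRT5, KRT8, ITGB4, PTGS1, PLA2G4A and HPGD were named after their values were seen. So were genes that mark the limit of 1% and those at 0 in the same lines as PYCARD or near the 7 genes. Alternatives to the scaling were RLE and the upper quartile. Those to the filter were none, and 1 CPM in 3 libraries. DESeq2 1.42.0, limma-voom (limma 3.58.1), fits to only the lines compared, a block for the replicate number and leaving out each library were also run, as were 5 CPM as the floor for expressed genes and promoters without the bases after the start. A fit without T1 replicate 1 and NeoT replicate 3, and counts without the SULT1A genes and with 0 to 3 counts at the floor, were added after seeing the data. Descriptions used pandas 2.3.3, scipy 1.17.1, numpy 2.4.6 and, for plots, matplotlib 3.10.9, in Python 3.11.15.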

Additional observations from a re-analysis of the deposited data

How the results depend on the processing

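Of 16 tests of the 6 genes among A10, NeoT and T1, all but 1 kept their direction and their side of the threshold under all alternatives run. The exception was SULT1E1 in T1 against A10, whose log2 difference of -0.36 (adjusted p = 0.0404) was -0.36 with the replicate block (adjusted p = 0.0618), -0.26 without both T1 replicate 1 and NeoT replicate 3 (adjusted p = 0.135) and from -0.47 to -0.23 with single libraries left out. The cause was not tested. Replicate numbers do not pair the libraries: deviations of same-numbered libraries from their line means had r from -0.069 to 0.088 over 18 pairs, and the block ended no other call. Of 81 tests of other genes, all but 3 kept their call throughout; SCNN1A and CNTROB in CA1 against A10 and ZNF331 in CA1 against T1 lost theirs when single libraries were left out, and SCNN1A also with upper-quartile scaling (adjusted p = 0.113) and with no filter (adjusted p = 0.111). None reversed. The count of genes low in CA1 fell from 45 to 16 with a minimum of 5 CPM in the other lines, and also to 16 with 0 to 3 counts set to the floor, which was added after seeing the data. Counts of genes called stayed within 1.5 times of those given. At 3 counts the floor of a line limits every bound: a gene at 0 in CA1 may still be expressed below 0.0463 CPM. Counts are estimates of one program, and how it divided reads between copies of a gene could not be checked.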

Other observations

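Some of the 45 genes whose measured CA1 mean was under 1% of the lowest other line are given here as values; they were chosen after their values were seen. HSD17B2, which oxidises estradiol and so acts on the same hormones as SULT1E1, stood at 31.0 ± 2.61, 13.5 ± 0.788, 3.76 ± 0.505 and 0.0188 CPM in the order A10, NeoT, T1, CA1. EMD (emerin, of the inner nuclear membrane; chromosome X, 154379295 to 154381523) stood at 53.2 ± 5.22, 82.8 ± 9.15, 52.2 ± 3.42 and 0.0432 CPM in the same order. FLNA, the gene before it on the chromosome (154348531 to 154374634) and the one most like SULT1E1, fell to 47.1 ± 2.75 CPM in CA1 from 1174 ± 43.3 in T1.

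Chromosome 19, where MYADM lies, held 10 of the 45 genes, more than any other chromosome; it held 751 of the 11302 expressed genes. Of the 45, 10 are zinc finger genes with the symbol ZNF, 9 of them on chromosome 19. Of the 346 expressed ZNF genes, 2.89% were among the 45. With 0 to 3 counts set to the floor, no ZNF gene could be placed under 1%. Their bounds ran from 1.02% (ZNF585B) to 4.34% (ZNF799). By that rule MYADM was the only chromosome 19 gene left. The 5 expressed genes from ZNF20 to ZNF443 (chromosome 19, 12131350 to 12441021) had 0 counts in all CA1 libraries. They are ZNF20, ZNF136, ZNF44, ZNF799 and ZNF443. Their levels in A10 ran from 1.49 CPM (ZNF443) to 2.95 (ZNF136). ZNF20 and ZNF443, which set the ends of this stretch, are of the 45, so their counts in CA1 were known beforehand. Genes under 1 CPM in A10, NeoT or T1 were not counted, and those flanking the stretch were not examined. MYADM lies on the other arm of that chromosome. The nearest tested gene before it, ZNF331, stood at 11.2 ± 0.872 CPM in CA1. CACNG7, which lies closer on the other side, had counts in NeoT only and none in A10, T1 or CA1.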
